A study of Mus musculus with 14 samples.

Results

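The 31 mouse genes described here encode the core, accessory and ubiquitin-handling subunits of the Polycomb complexes, taken by symbol from a list of known subunits. All 31 were among the 43629 gene identifiers in the count tables, and all 31 passed the filter on low counts that left 15959 genes for testing. The gene levels came from RNA-seq of primary hippocampal cultures of wild-type C57BL6 mice, prepared at postnatal day 0 to 1 and grown for 14 days in vitro. The 4 CTRL cultures received 0.1% DMSO for 15 h, and the 4 PTX cultures received 100 µM picrotoxin, a blocker of inhibitory GABA-A receptors that raises the firing of cultured networks, for the same time. Total RNA was depleted of ribosomal RNA. The number of pups behind a culture is not stated. The same series holds ChIP-seq with an antibody to L3mbtl1, a chromatin reader of the malignant brain tumor domain family, from hippocampus of C57BL6/129 mice at postnatal day 7 to 8. Of those 6 samples, 3 were wild type and 3 were L3mbtl1-/-, and a single list of 4677 peaks covers them all.

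Polycomb repressive complex 2 (PRC2) methylates lysine 27 of histone H3, with EZH1 or EZH2 as its catalytic subunit and EED, SUZ12 and RBBP4 or RBBP7 as its core partners. Polycomb repressive complex 1 (PRC1) ubiquitinates histone H2A through RING1 or RNF2: its canonical forms carry a CBX protein that reads the PRC2 mark and a PHC protein that compacts chromatin, and its variant forms carry RYBP or YAF2 instead. The PR-DUB complex, built on BAP1 and an ASXL protein, removes the same H2A ubiquitin. In the brain, a well known trait of the family is the exchange of EZH2 in dividing progenitors for EZH1 in mature neurons.

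The 8 RNA-seq libraries held 14524916 to 19498189 counts in genes. The largest axis of variation (60.4% of the variance) set PTX apart from CTRL, and the next (21%) separated CTRL and PTX replicate 1 from the remaining 6 libraries. Summed markers of excitatory neurons were at 414.5 to 535 CPM (gene counts scaled to a fixed library size) in CTRL and 215 to 246.5 CPM in PTX, with 4 of 5 genes lower. Astrocyte markers summed to 6183 to 8352 CPM and 4508 to 6229 CPM, with 4 of 7 lower, and inhibitory neuron markers to 461 to 606 CPM and 812 to 924.0 CPM, with 2 higher and 1 lower of 5. Markers of proliferating cells summed to 309.5 to 424 CPM and 305 to 428 CPM, with 1 of 11 higher. Meningeal fibroblast markers, 7 genes, summed to 417 CPM in CTRL replicate 1 and 339 CPM in PTX replicate 1. The other libraries of each group were at 146 to 219 CPM and 108 to 138 CPM. Of the 7, Ogn went the other way, at 73.9 and 53.1 CPM in the libraries numbered 1 (others 103.8 to 194.8 and 76.5 to 113.8 CPM). In the same libraries other lists were low: oligodendrocyte precursor markers summed to 192 and 206 CPM (others 315 to 405 and 368.5 to 468.5 CPM), and microglia markers to 40.4 and 49.0 CPM (others 83.4 to 93.0 and 75.0 to 122.5 CPM). Of the precursor markers, Olig1 was not low and lay within the range of the other libraries in each group. Of the microglia markers, Tmem119 went the other way, at 2.595 and 2.617 CPM (others 0.11 to 0.45 and 0.059 to 0.28 CPM). Endothelial and mural markers summed to 24.9 and 28.6 CPM (others 49.2 to 59.3 and 47.3 to 51.0 CPM), low through Kdr alone. Kdr was at 16.3 and 16.9 CPM (others 42.9 to 52.0 and 37.0 to 40.5 CPM). Pecam1 and Flt1 were instead highest in the libraries numbered 1. Rgs5 lay within the range of the others, and Cldn5 had at most 3 counts in a library. The part of these shifts in the results was not tested, and in such bulk RNA fewer cells of a type and less RNA per cell cannot be told apart.

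Picrotoxin moved the Polycomb genes in both directions. By edgeR's quasi-likelihood test (adjusted p under 0.05), 8 of the 31 rose (25.8%, where 19.0% of all tested genes did) and 8 fell (25.8%, where 20.1% did), so that 16 were called (51.6%, background 39.2%) and 15 did not pass. With the replicate number as a block, 10 rose (background 25.7%) and 11 fell (background 29.6%). Together these are 21 members (67.7%, background 55.3%). The median log2 fold change of the members was 0.02, against -0.03 over all tested genes. Levels in CTRL and PTX did not overlap for 17 members (54.8%, background 38.0%). Only 4 members were called with a change of at least 2-fold (12.9%, background 11.9%): Jarid2 and Aebp2 rose, and Cbx2 and Cbx6 fell.

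**Figure D1:**
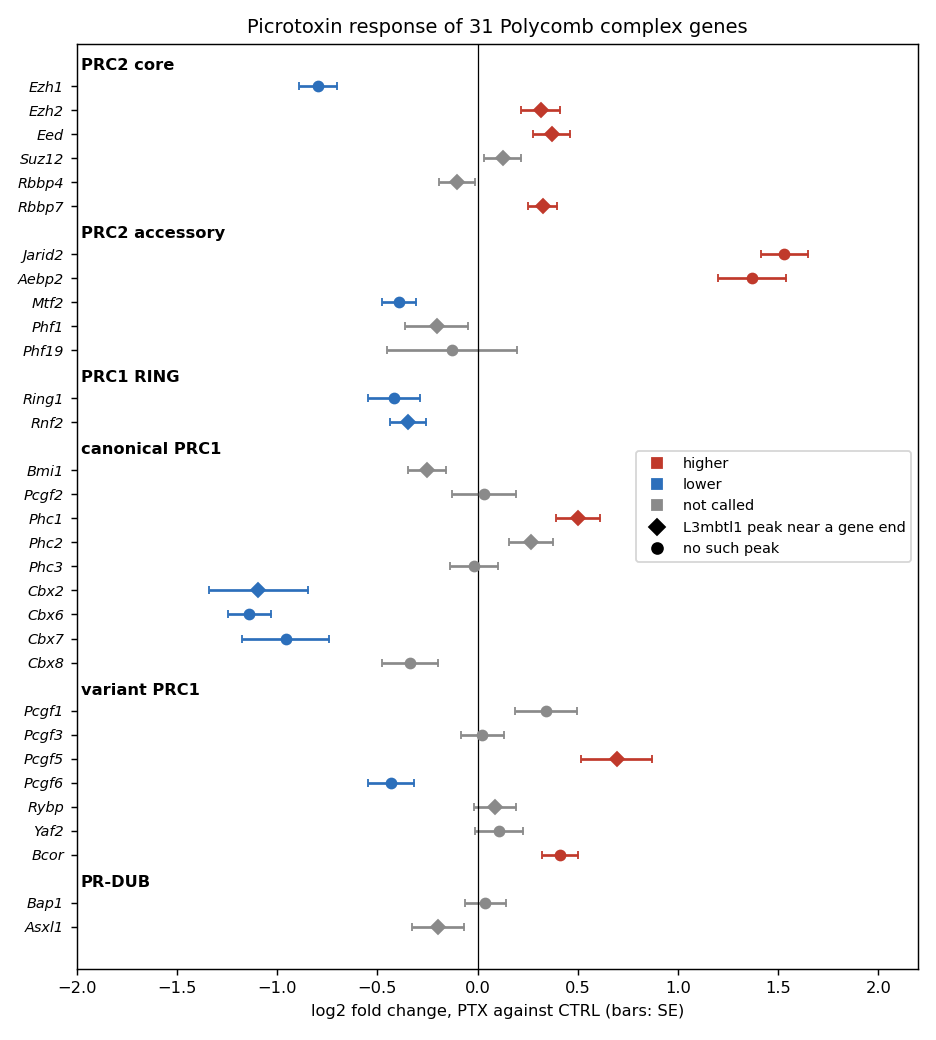
Log2 fold change of PTX against CTRL (x axis) for each of the 31 genes, ordered by complex, with bars of 1 SE; colour gives the edgeR call and diamonds mark genes with an L3mbtl1 peak within 2000 bp of a gene end. Jarid2 and Aebp2 lie to the right of 1, Cbx2 and Cbx6 to the left of -1, and both RING genes to the left of 0.

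Among the 6 genes of the PRC2 core, Ezh2, Eed and Rbbp7 rose, Ezh1 fell, and Suz12 and Rbbp4 did not pass the test. The promoters of 3 of them are shown, because the catalytic paralogs moved in opposite directions while the L3mbtl1 peak list covers all 250 bases shown for Ezh2 and Suz12 and none of those for Ezh1. The sequences are the 250 bases before a start in the RefSeq promoter table (GRCm38.p6, 5′ to 3′ on the strand of the gene), taking the start nearest the outer end of the gene. That start is the outer end itself for Ezh1 and Suz12, and for Jarid2, Cbx6 and Phc1 shown later. For Ezh2 it lies 240 bp inside the annotated gene, so that most of the Ezh2 stretch overlaps the span of longer transcripts. Capitals mark matches on either strand to TGACG (the core of the CRE motif), to TGANTCA (AP-1), to CACGTG (an E-box), to CCAAT (the CCAAT box), to TTTGGCGC (E2F) or to the NRF1 motif.
Ezh2, chr6:47595031-47595280, minus strand: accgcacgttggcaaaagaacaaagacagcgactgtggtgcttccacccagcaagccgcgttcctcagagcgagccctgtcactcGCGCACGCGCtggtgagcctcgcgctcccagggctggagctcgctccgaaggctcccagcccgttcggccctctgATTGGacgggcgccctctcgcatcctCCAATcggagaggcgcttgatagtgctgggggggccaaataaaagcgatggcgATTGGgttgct
Ezh1, chr11:101226464-101226713, minus strand: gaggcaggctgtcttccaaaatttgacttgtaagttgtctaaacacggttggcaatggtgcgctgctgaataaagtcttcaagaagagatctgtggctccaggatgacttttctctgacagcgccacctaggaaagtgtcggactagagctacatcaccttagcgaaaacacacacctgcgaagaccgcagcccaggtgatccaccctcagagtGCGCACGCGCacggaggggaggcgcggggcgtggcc
Suz12, chr11:79992856-79993105, plus strand: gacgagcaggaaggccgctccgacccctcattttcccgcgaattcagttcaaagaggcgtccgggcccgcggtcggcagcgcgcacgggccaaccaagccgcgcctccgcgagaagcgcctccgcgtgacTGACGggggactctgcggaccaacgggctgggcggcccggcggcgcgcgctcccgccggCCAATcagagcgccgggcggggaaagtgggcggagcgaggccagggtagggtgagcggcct
The Ezh2 stretch holds 23 CpG dinucleotides, that of Ezh1 14 and that of Suz12 37. A match describes letters only and was not tested as a site.

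Ezh1, the methyltransferase that prevails in mature neurons, was at 43.1, 46.7, 45.3 and 45.4 CPM in CTRL replicates 1 to 4 and at 22.3, 29.4, 25.2 and 26.9 CPM in PTX replicates 1 to 4. Every PTX library lay below every CTRL library. The mean went from 45.1 ± 1.48 CPM to 25.9 ± 3.0 CPM (SD, n = 4 each), a 1.74-fold fall (log2 fold change -0.80, SE 0.0944, edgeR adjusted p = 0.000122). Ezh2, the paralog that prevails in dividing cells, was at 21.1, 26.2, 25.0 and 22.4 CPM in CTRL and at 26.8, 29.8, 31.9 and 29.4 CPM in PTX. These groups came close, with CTRL replicate 2 just under PTX replicate 1, but did not overlap. Ezh2 rose 1.24-fold (log2 fold change 0.31, SE 0.0984, edgeR adjusted p = 0.0287), and the call was lost without CTRL replicate 4 (edgeR adjusted p = 0.0733) and with no filter on low counts (edgeR adjusted p = 0.0671).

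Eed, which binds the H3K27 methyl mark and stimulates the enzyme, was at 22.2, 20.9, 19.1 and 22.5 CPM in CTRL and at 26.3, 24.9, 29.0 and 29.2 CPM in PTX. All 4 PTX libraries were the higher ones, and Eed rose 1.29-fold (log2 fold change 0.37, SE 0.0944, edgeR adjusted p = 0.0111). Rbbp7, a histone chaperone that PRC2 shares with other complexes, rose 1.25-fold, from 289.6 ± 17.4 CPM to 363 ± 10.8 CPM (SD, n = 4 each; edgeR adjusted p = 0.00588). Its close paralog Rbbp4 was at 149, 154, 152 and 135 CPM in CTRL and at 120.0, 154, 139 and 136.5 CPM in PTX. Those groups overlapped, with a log2 difference of -0.10 (SE 0.091, edgeR adjusted p = 0.419). Suz12, the scaffold of the complex, also overlapped between groups, with a log2 difference of 0.13 (SE 0.0913, edgeR adjusted p = 0.314).

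The accessory subunits of PRC2 held the largest rises among the 31 genes. Jarid2 and Aebp2, which define the PRC2.2 form of the complex and bind chromatin that carries ubiquitinated H2A, both rose, while Mtf2, a Polycomb-like protein of the alternative PRC2.1 form, fell. Jarid2 was at 43.9, 41.1, 45.3 and 40.2 CPM in CTRL and at 149.9, 103, 126 and 114 CPM in PTX. The lowest PTX library was above 100.0 CPM and the highest CTRL library under 46 CPM. The gene rose 2.89-fold (log2 fold change 1.53, SE 0.118, edgeR adjusted p = 9.24e-06). Its promoter is shown as that of the member with the largest rise, with 23 CpG dinucleotides and no L3mbtl1 peak within 2000 bp of a gene end.
Jarid2, chr13:44730524-44730773, plus strand: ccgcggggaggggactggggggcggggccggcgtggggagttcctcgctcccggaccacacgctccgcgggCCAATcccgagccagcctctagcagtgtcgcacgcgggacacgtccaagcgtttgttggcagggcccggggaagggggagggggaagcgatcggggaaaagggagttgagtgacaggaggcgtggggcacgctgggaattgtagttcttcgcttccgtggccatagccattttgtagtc
Aebp2 was at 69.6, 66.5, 61.9 and 64.0 CPM in CTRL and at 201, 109.5, 194 and 171.5 CPM in PTX. The CTRL libraries were tightly grouped, whereas PTX replicate 2 stood well under the other 3 PTX libraries and still above all of CTRL. Aebp2 rose 2.58-fold (log2 fold change 1.37, SE 0.169, edgeR adjusted p = 0.000155).

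Mtf2 was at 89.5, 80.7, 78.0 and 74.3 CPM in CTRL and at 63.0, 59.2, 65.8 and 57.8 CPM in PTX. It fell 1.31-fold with no overlap (log2 fold change -0.39, SE 0.0841, edgeR adjusted p = 0.00442). The other Polycomb-like genes, Phf1 and Phf19, overlapped between groups, with log2 differences of -0.21 (edgeR adjusted p = 0.347) and -0.13 (edgeR adjusted p = 0.798). Phf19 had 26 to 70 counts in a CTRL library and 29 to 57 in a PTX library, and its SE of 0.325 is the widest of the members.

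**Figure D2:**
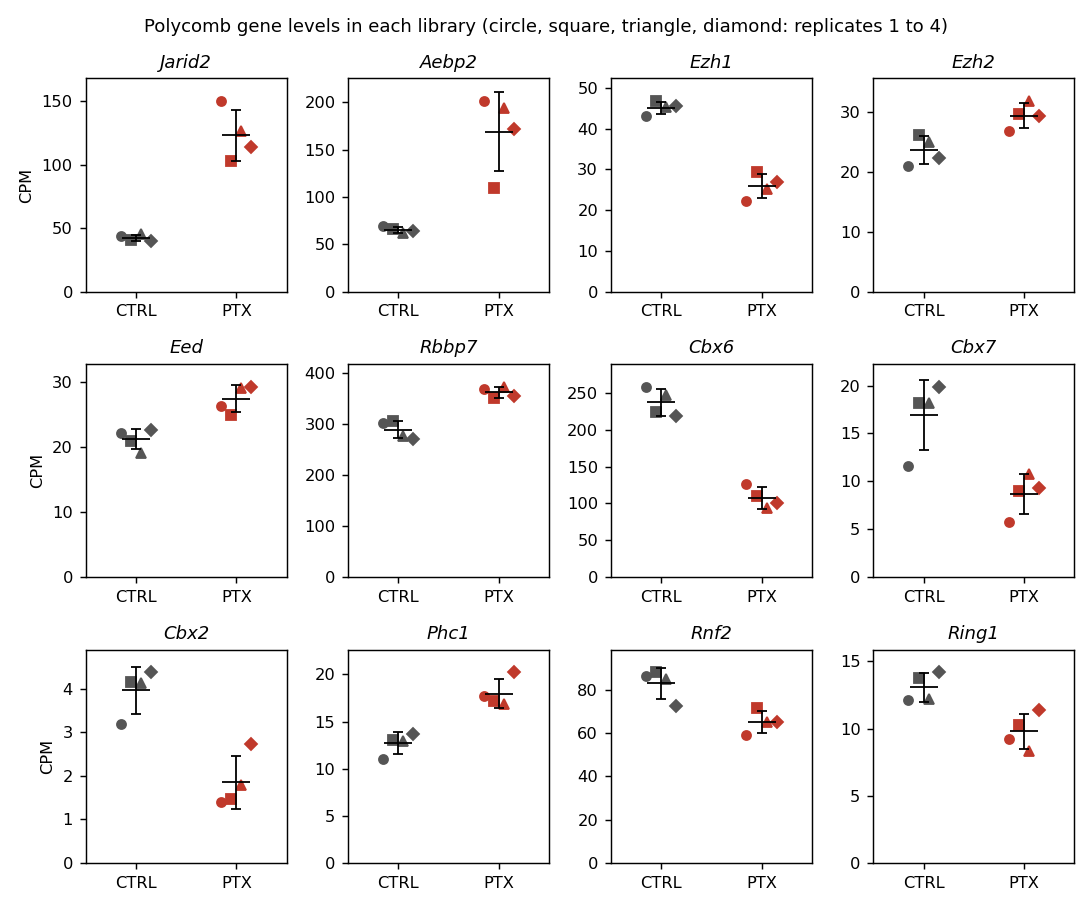
CPM (y axis, from 0) of 12 genes in each CTRL and PTX library, with the mean and SD of 4 libraries and symbols for replicates 1 to 4. The groups are separate in every panel, most widely for Jarid2, Cbx6 and Ezh1, and PTX replicate 2 is the low point of Aebp2.

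Both RING genes, which encode the alternative H2A ubiquitin ligases of every PRC1 form, fell. Ring1 was at 12.2, 13.8, 12.2 and 14.2 CPM in CTRL and at 9.19, 10.3, 8.34 and 11.4 CPM in PTX, with no overlap. It fell 1.33-fold (log2 fold change -0.41, SE 0.13, edgeR adjusted p = 0.0287), a call that was lost with no filter on low counts (edgeR adjusted p = 0.0548), when CTRL replicate 2 (edgeR adjusted p = 0.0623), CTRL replicate 4 (0.074), PTX replicate 1 (0.0876) or PTX replicate 3 (0.132) was left out and without both libraries numbered 1 (edgeR adjusted p = 0.0698). Rnf2, the more widely used ligase, was at 86.5, 88.0, 84.8 and 72.7 CPM in CTRL and at 59.3, 71.7, 65.2 and 64.9 CPM in PTX. CTRL replicate 4 and PTX replicate 2 almost met. The fall was 1.27-fold (log2 fold change -0.35, SE 0.0909, edgeR adjusted p = 0.0127) and was not called without both libraries numbered 1 (edgeR adjusted p = 0.0671).

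In canonical PRC1 the chromodomain genes Cbx2, Cbx6 and Cbx7 fell and Phc1 rose, and the other 5 of the 9 genes did not pass the test. The promoters of Cbx6, the member with the largest fall, and of Phc1, the member with the highest-scoring L3mbtl1 peak, are shown. In the Cbx6 stretch the matches to CACGTG and TGACG overlap.
Cbx6, chr15:79834334-79834583, minus strand: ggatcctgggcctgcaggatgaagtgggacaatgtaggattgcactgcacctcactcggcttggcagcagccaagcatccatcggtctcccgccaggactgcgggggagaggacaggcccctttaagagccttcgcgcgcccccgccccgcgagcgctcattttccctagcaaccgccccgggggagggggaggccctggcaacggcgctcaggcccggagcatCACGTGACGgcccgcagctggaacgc
Phc1, chr6:122340228-122340477, minus strand: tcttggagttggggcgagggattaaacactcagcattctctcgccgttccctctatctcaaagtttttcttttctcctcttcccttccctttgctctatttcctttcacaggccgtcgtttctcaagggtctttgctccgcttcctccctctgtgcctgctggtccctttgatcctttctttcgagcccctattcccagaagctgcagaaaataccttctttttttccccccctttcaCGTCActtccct
Cbx6 holds 20 CpG dinucleotides with no peak near a gene end, and Phc1 holds 8 with all 250 bases under a peak.

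Cbx6 was at 258, 224, 247 and 218.5 CPM in CTRL and at 126, 110.1, 93.4 and 100.0 CPM in PTX. No PTX library reached 130 CPM. It fell 2.2-fold (log2 fold change -1.14, SE 0.107, edgeR adjusted p = 2.89e-05). Cbx6 overlaps the annotated gene Npcd, listed at 0 counts in every library, and the handling of overlapping genes is not given in the sources used here.

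Cbx7, which reads H3K27 methylation in canonical PRC1 of many adult tissues, was at 11.6, 18.2, 18.1 and 19.9 CPM in CTRL and at 5.81, 8.96, 10.8 and 9.35 CPM in PTX. In each group the library numbered 1 was the lowest, and CTRL replicate 1 was close to PTX replicate 3. It fell 1.94-fold (log2 fold change -0.96, SE 0.216, edgeR adjusted p = 0.00566). Cbx2, whose protein compacts chromatin, was scarce at 3.18, 4.15, 4.14 and 4.38 CPM in CTRL and at 1.40, 1.47, 1.79 and 2.73 CPM in PTX. It rested on 54 to 83 counts in a CTRL library and 22 to 45 in a PTX library. It fell 2.14-fold without overlap (log2 fold change -1.10, SE 0.247, edgeR adjusted p = 0.00567). Cbx8 had a log2 difference of -0.34 and did not pass (edgeR adjusted p = 0.0806, or 0.02 with the block), although every PTX library was under every CTRL library.

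Phc1, a polyhomeotic protein whose SAM domain polymerizes PRC1, was at 11.0, 13.1, 12.9 and 13.7 CPM in CTRL and at 17.7, 17.2, 16.8 and 20.2 CPM in PTX. It rose 1.42-fold without overlap (log2 fold change 0.50, SE 0.11, edgeR adjusted p = 0.00485). Its paralogs Phc2 and Phc3 had log2 differences of 0.27 (edgeR adjusted p = 0.0813, or 0.0308 with the block and 0.0262 without PTX replicate 4) and -0.02 (edgeR adjusted p = 0.926). Bmi1, the PCGF subunit best known from neural stem cell renewal, was at 79.4, 70.2, 72.7 and 59.6 CPM in CTRL and at 60.4, 61.8, 57.7 and 56.7 CPM in PTX. The overlap came from CTRL replicate 4 alone. The log2 difference of -0.25 was not called (edgeR adjusted p = 0.0569), but was with the block (0.0106) and without CTRL replicate 4 (edgeR adjusted p = 0.0127). Pcgf2, its paralog, had a log2 difference of 0.03 (edgeR adjusted p = 0.9).

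Of the 7 variant PRC1 genes, Pcgf5 and Bcor rose and Pcgf6 fell. Pcgf5, the PCGF subunit of PRC1.5, was at 6.54, 11.1, 8.69 and 10.7 CPM in CTRL and at 15.4, 12.3, 16.3 and 15.8 CPM in PTX. CTRL replicate 1 was the lowest and PTX replicate 2 came nearest to CTRL. It rose 1.62-fold (log2 fold change 0.69, SE 0.176, edgeR adjusted p = 0.0107). Bcor, the corepressor that marks PRC1.1, was at 22.9, 24.4, 24.5 and 21.2 CPM in CTRL and at 31.5, 27.5, 32.0 and 32.6 CPM in PTX. The rise was 1.33-fold without overlap (log2 fold change 0.41, SE 0.0903, edgeR adjusted p = 0.00511). Pcgf6, the subunit of PRC1.6, was at 17.4, 17.2, 14.5 and 13.7 CPM in CTRL and at 12.2, 11.2, 11.4 and 11.8 CPM in PTX. It fell 1.35-fold (log2 fold change -0.43, SE 0.115, edgeR adjusted p = 0.0136), a call that was lost without CTRL replicate 1 (edgeR adjusted p = 0.0666), PTX replicate 3 (0.0651) or PTX replicate 4 (0.055).

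The remaining variant PRC1 genes did not pass. Pcgf1, the partner of BCOR in PRC1.1, had a log2 difference of 0.34 (edgeR adjusted p = 0.11, or 0.0283 with the block and 0.0447 without PTX replicate 1). Pcgf3 had 0.02 (edgeR adjusted p = 0.892), and Rybp and Yaf2, which take the place of CBX proteins, had 0.09 (edgeR adjusted p = 0.557) and 0.11 (edgeR adjusted p = 0.518). In PR-DUB, the deubiquitinase gene Bap1 had a log2 difference of 0.04 (edgeR adjusted p = 0.803). Its partner Asxl1 had the lower value on the PTX side of each of the 4 numbered pairs, with overlapping groups and a log2 difference of -0.20 (edgeR adjusted p = 0.263, or 0.0283 with the block).

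Ratios between paralogs that occupy the same place in a complex were compared within each library, over 10 pairs, as differences in log2(CPM + 0.5). They are not corrected for transcript length, so only their shift is read. The Ezh2 to Ezh1 log2 ratio was -1.01, -0.82, -0.84 and -1.003 in CTRL and 0.26, 0.02, 0.33 and 0.13 in PTX. All 4 same-numbered pairs shifted upward, by a mean of 1.10 (SE 0.0863) or 2.15-fold. The Rbbp4 to Rbbp7 ratio shifted by -0.43 (SE 0.0968) and the Pcgf3 to Pcgf5 ratio by -0.67 (SE 0.232), both lower in 4 of 4 pairs. For these 3 pairs the groups did not overlap, and each gave the smallest p that 4 against 4 libraries allow (two-sided exact permutation p = 0.0286, adjusted over the 10 pairs 0.0952). No pair could therefore pass the adjusted threshold unless more pairs had reached that p. Since Ezh1, Ezh2, Rbbp7 and Pcgf5 were called one by one, the ratios restate those values within a library.

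**Figure D3:**
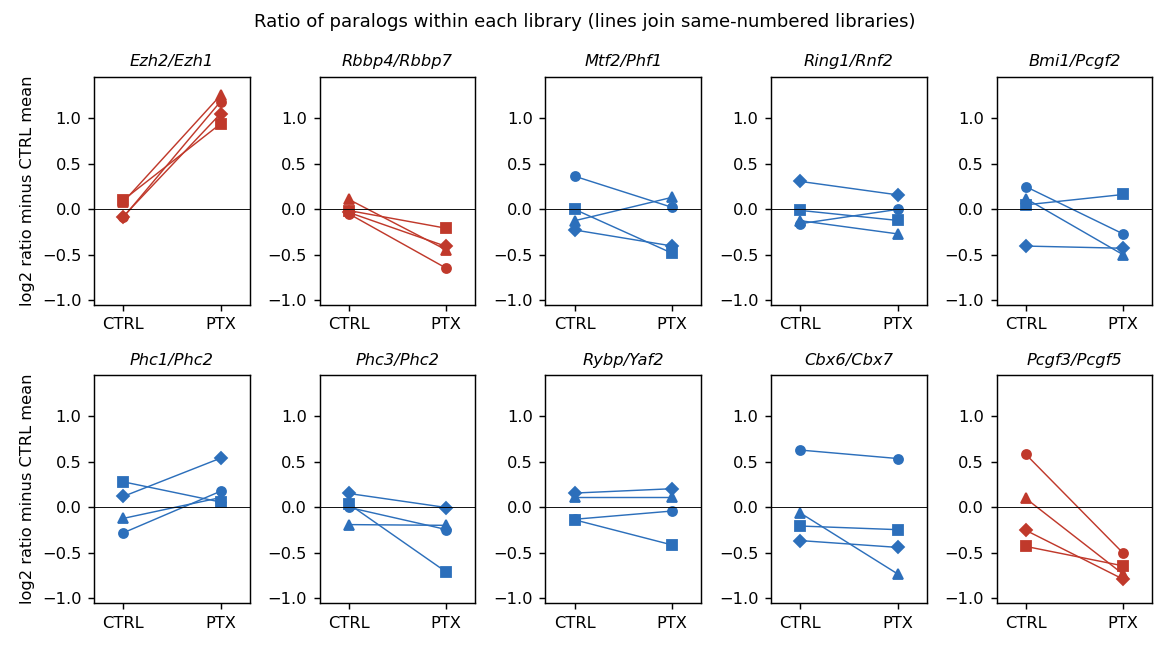
Log2 ratio of each paralog pair minus its CTRL mean (y axis), with lines joining same-numbered CTRL and PTX libraries; red marks the 3 pairs whose groups do not overlap. All 4 lines rise for Ezh2/Ezh1 and fall for Rbbp4/Rbbp7 and Pcgf3/Pcgf5.

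The other 7 pairs overlapped between groups. The Ring1 to Rnf2 ratio shifted by -0.06 (SE 0.14, exact permutation p = 0.771) while both genes fell. The Cbx6 to Cbx7 ratio shifted by -0.22 (SE 0.349, exact permutation p = 0.486) while both fell, and was lower in each of the 4 numbered pairs. The Phc3 to Phc2 ratio shifted by -0.29 (SE 0.166, exact permutation p = 0.0571), likewise lower in each of the 4 pairs.

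L3mbtl1 peaks came from hippocampal tissue at postnatal day 7 to 8. The cultures, prepared at postnatal day 0 to 1 and grown for 14 days, were not used for them. They lay within 2000 bp of an end of 14 of the 31 genes (45.2%), against 3612 of 13658 tested protein-coding genes (26.4%). The share differed between complexes: 5 of 6 PRC2 core genes, all but Ezh1, and 1 of 5 PRC2 accessory genes had a peak. Canonical PRC1 had 4 of 9, variant PRC1 2 of 7, and the RING and PR-DUB pairs 1 of 2 each. The 14 genes had 20 peaks, of median width 932.5 bp against 747 bp for all 4677 peaks. The peak score is the authors' own, with a median of 10.7 over the list. Of the 20 peaks, 11 were at or above that median, which splits the whole list evenly.

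The highest score at a member was that of Phc1 (chr6:122339988-122340677, score 21.0, rank 175), over the start of the gene, and a lower peak lay inside the gene (chr6:122338715-122339594, score 10.7). Ezh2 had the widest, 3074 bp over its start (chr6:47593539-47596612, score 18.6, rank 314), where a long noncoding gene also lies. Rybp had 2 peaks (chr6:100287658-100288669, score 17.9, and chr6:100285141-100286818, score 9.34). In the PRC2 core, Suz12 (chr11:79992325-79993309, score 15.3) and Rbbp4 (chr4:129334339-129335923, score 11.5) had peaks over the start. Those of Eed (chr7:89979616-89980935, score 13.8, and chr7:89981008-89981177, score 9.77) flanked it, and that of Rbbp7 (chrX:162760408-162760795, score 12.7) began 36 bp from it.

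Among PRC1 genes, Cbx2 had 2 peaks (chr11:119021709-119022973, score 14.1, and chr11:119023069-119023767, score 8.68). Bmi1 had 3, at chr2:18675614-18676434 (score 11.7), chr2:18678990-18679403 (score 8.78) and chr2:18677722-18678848 (score 8.19). Single peaks lay at Pcgf5 (chr19:36348535-36350094, score 11.0), Phc2 (chr4:128654908-128655276, score 9.94) and Rnf2 (chr1:151499785-151500774, score 9.81). Asxl1 of PR-DUB had 1 (chr2:153346557-153347326, score 9.81). Phf1 was the member just inside the window, with its peak (score 9.85) 1401 bp past the gene. Aebp2 was just outside, with a peak 2462 bp from the nearest gene end (chr6:140624916-140625888, score 9.40). Aebp2 has 3 annotated starts, and that peak covers 43 promoter bases at a start inside the gene. By the window on gene ends, Aebp2 still counts here as without a peak.

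**Figure D4:**
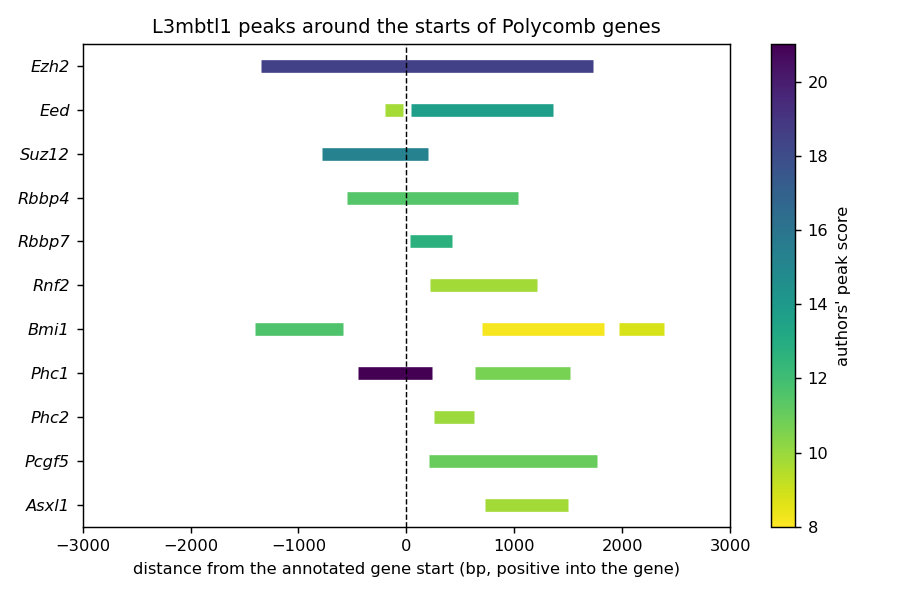
Position of 15 L3mbtl1 peaks relative to the outermost annotated start (x axis, bp, positive into the gene) of the 11 member genes with a known strand and a peak near the start; colour is the authors' peak score. The peaks of Ezh2, Suz12, Rbbp4 and Phc1 span the start, and those of Rnf2, Phc2, Pcgf5 and Asxl1 lie inside the gene.

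Of the 14 genes with a peak, 5 rose and 2 fell with picrotoxin, and of the 17 without one, 3 rose and 6 fell. Over all tested protein-coding genes, 23.5% of those with a peak rose and 20.8% fell, against 19.2% and 21.1% of those without. The difference between the members' counts was not tested. Promoters were found for 27 members, 16 of them at the outer end of the gene and 11 at a start 14 to 38497 bp inside it (the farthest that of Cbx7), with a median of 21 CpG dinucleotides against 16 over 10922 tested coding genes, and genes with a peak had more in general (median 20, against 14 without). CACGTG, searched on both strands, was in 8 of the 27 promoters (29.6%, against 8.24% of all), at Bap1, Bmi1, Cbx6, Cbx8, Pcgf2, Phc2, Phc3 and Rbbp4. The NRF1 motif was in 6 (22.2%, against 8.0%), TGACG in 9 (33.3%, against 26.4%), CCAAT in 9 (33.3%, against 36.4%), TGANTCA in 1 (3.7%, against 4.19%) and TTTGGCGC in 0 (against 0.797%).

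Partners of the complexes that are not among the 31 genes were read in the same fit. Genes of these lists that are named for a call under the block, under DESeq2 or with no filter were chosen after their values were seen. Over all genes DESeq2 called 31.5% and edgeR with no filter 20.9%. Of 22 PRC1 partners, 2 rose and 6 fell (36.4% called, background 39.2%). DESeq2 called 3 higher and 4 lower. Of the 6 that fell, Kdm2b and L3mbtl2 lost the call in 9 of the 13 alternatives, DESeq2 among them. With the block 5 rose and 6 fell, with Hdac2 (0.00339), E2f6 (0.0144) and Csnk2a2 (0.031) added. Dcaf7, an adaptor of PRC1.3 and PRC1.5, fell 1.79-fold, from 338 ± 29.0 CPM to 189 ± 10.2 CPM (SD, n = 4 each; edgeR adjusted p = 4.89e-05), and Scmh1, a partner of canonical PRC1, fell 1.41-fold (edgeR adjusted p = 0.00324). Wdr5, shared by PRC1.6 and activating methyltransferases, rose 1.47-fold (edgeR adjusted p = 0.000118), and the deubiquitinase Usp7 rose 1.21-fold (edgeR adjusted p = 0.049). The Usp7 call was lost with no filter and on leaving out any of CTRL replicates 2, 3 and 4 and PTX replicates 1 and 3 (edgeR adjusted p up to 0.142). Of 9 PR-DUB partners, 0 rose and 5 fell (55.6%, where 20.1% of all tested genes fell): Foxk1 by 1.60-fold (edgeR adjusted p = 0.00352), Kdm1b by 1.41-fold (0.00371), Ogt by 1.29-fold (0.00417), Mbd5 by 1.39-fold (0.0133) and Asxl3 by 1.41-fold (0.0228). DESeq2 also called 0 higher and 5 lower, as did an unadjusted edgeR p under 0.05. With the block 7 fell, with Foxk2 (0.00889) and Hcfc1 (0.034) added. The Mbd5 call was lost without CTRL replicate 1, PTX replicate 3 or PTX replicate 4 (edgeR adjusted p up to 0.0914). That of Asxl3 was lost without CTRL replicate 1, CTRL replicate 3, PTX replicate 1 or both libraries numbered 1 (edgeR adjusted p up to 0.139). Of 3 tested PRC2 partners 0 were called by edgeR, 0 had an unadjusted p under 0.05 and 0 were called by DESeq2, but Epop rose with the block (edgeR adjusted p = 0.0462).

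Among 12 genes whose products oppose Polycomb marks, 3 rose (25.0%, background 19.0%) and 0 fell by edgeR, as by DESeq2. With the block 4 rose and 1 fell: the added calls were Crebbp, an acetyltransferase of the same lysine (edgeR adjusted p = 0.0412), and Kdm6a, an H3K27 demethylase (edgeR adjusted p = 0.00093). Kdm6a had its lower value on the PTX side of each of the 4 pairs and, without the block, an unadjusted p under 0.05. The H3K27 demethylase Kdm6b was at 5.84, 4.38, 5.14 and 5.55 CPM in CTRL and at 10.3, 7.25, 9.03 and 10.6 CPM in PTX, with no overlap. It rose 1.78-fold (edgeR adjusted p = 0.00299). The H2A deubiquitinases Usp16 and Mysm1 rose 1.51-fold (edgeR adjusted p = 0.0022) and 1.27-fold (edgeR adjusted p = 0.0323). The Mysm1 call was lost on leaving out any of CTRL replicates 2, 3 and 4 and PTX replicate 3 (edgeR adjusted p up to 0.103).

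Hox genes, classical Polycomb targets, had few counts. None of 39 Hox genes passed the filter on low counts: 25 were at 0 in every library, and all 39 together had 26 counts in CTRL and 23 in PTX. Of 38 other developmental regulators, 6 were tested, and 2 rose (33.3%, background 19.0%) and 0 fell by edgeR. Of the 2, Pax1 passed the filter on low counts only through its PTX libraries. Cdkn2a was lower at an unadjusted p under 0.05 and fell with the block (edgeR adjusted p = 0.0472). Among these targets Cdkn2b had 551 counts in CTRL and 554 in PTX and was not called (edgeR adjusted p = 0.365). With no filter on low counts 34 of the 38 had an adjusted p, and by DESeq2 21 had. Both called 5 of these higher and 0 lower, with Sim1, Tbx5 and Isl1 added. Over all genes the shares called in either direction were 20.9% and 31.5%. The 0 lower says little, as genes with so few CTRL counts can hardly be called lower. Sim1 had 2 counts in CTRL and 74 in PTX (adjusted p = 0.000212 by edgeR with no filter and 5.08e-05 by DESeq2). Tbx5 had 0 and 14 counts (0.0098 and 0.0144 by the same tools), and Isl1 3 and 22 (0.0178 and 0.0313). Pax1, a regulator of the axial skeleton, summed to 6 counts in CTRL and 202 counts in PTX (log2 fold change 5.11, SE 0.623, edgeR adjusted p = 0.000146). Foxf1, a mesenchymal regulator, had 74 and 177 counts (2.66-fold, edgeR adjusted p = 0.0199). The call was lost without CTRL replicate 2 (edgeR adjusted p = 0.0583) and without CTRL replicate 4, and its highest library in each group was the one numbered 1.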

How the data were processed

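For each RNA-seq library the authors deposited raw, unnormalized read counts by Ensembl gene. The submitters' processing notes name CASAVA 1.8, TopHat2 2.0.9, Bowtie2 2.2.4, HTSeq 0.6.1 and build mm10. Strand setting, annotation release and treatment of overlapping genes: not given in the sources used here. Lines that name no gene stayed out of library sizes (reads in no feature, 19.9% to 26.8% of all lines' counts per library; ambiguous reads, 0.58% to 0.67%). Symbols matched 42462 of 43629 identifiers, and all 31 members matched. PTX was compared with CTRL with the quasi-likelihood F test of edgeR 4.0.16 (R 4.3.3), after filterByExpr and TMM scaling, with treatment alone in the model. A call is a Benjamini-Hochberg adjusted p under 0.05 over 15959 tested genes. The standard error is the log2 fold change divided by the square root of F. The code of the test was checked on simulated counts, with changes larger than most called here and no structure by replicate number. That check does not bear on smaller changes.

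Over all tested genes, CTRL and PTX libraries numbered 1, 2 and 4 deviated together from their group means (correlations 0.77, 0.566 and 0.608). For number 3 the correlation was 0.153, under the 0.209 of CTRL replicate 3 with PTX replicate 4. Libraries of different numbers were at -0.501 to 0.209. A fit with the replicate number as a block is therefore given where it changes a call, cell type markers aside. The alternatives were RLE scaling, DESeq2 1.42.0, no filter on low counts, the block, and leaving out libraries. Paralog ratios used log2(CPM + 0.5) and an exact permutation test (scipy 1.17.1).

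The ChIP-seq list holds 1 score per peak, the authors' own, deposited for all 6 ChIP-seq samples together. Which caller and IDR (replicate reproducibility) threshold made it, and how replicates and knockout entered, is not given in the sources used here, so wild type and knockout were not compared. Gene positions and promoters came from RefSeq, GRCm38.p6, the assembly of mm10. The text names all members, every peak at a member gene, and from each other list the 2 called genes of smallest p in each direction, or every called gene of a direction with 5 or fewer. Members and lists were chosen with earlier results of these data known.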

Additional observations from a re-analysis of the deposited data

Results flagged for a closer look

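A gap of the highest or lowest library from the other 3 was looked for in 82 groups of 4 libraries (each member and each paralog ratio in CTRL and in PTX), where chance flags about 1 group in 20. There were 2 such groups. Pcgf2 was at 7.97 CPM in CTRL replicate 4 and at 6.66 to 6.79 CPM in the other CTRL libraries. Phc3 was at 88.1 CPM in PTX replicate 2 and at 116 to 121 CPM in the other PTX libraries. Neither gene passed the test of PTX against CTRL.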

How the results depend on the processing

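Over 13 alternatives (RLE scaling, DESeq2, no filter, the replicate block, each of 8 libraries left out, and both libraries numbered 1 left out), 7 members stayed called higher (Eed, Rbbp7, Jarid2, Aebp2, Phc1, Pcgf5 and Bcor) and 5 lower (Ezh1, Mtf2, Cbx2, Cbx6 and Cbx7). Ezh2, Ring1, Rnf2 and Pcgf6 each lost the call in at least 1, and the cause was not tested. Members called higher numbered 7 to 9 and lower 6 to 8 with a library left out, against 8 and 8. Without both libraries numbered 1 they were 8 and 6. The replicate block lost no member's call and gave 10 and 11, with 8820 genes called in all against 6248. Leaving out a library gave 5119 to 6229.

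Directions turned only for values near 0 that were not called. Phc3 was at 0.016 with RLE scaling, 0.014 with DESeq2, 0.03 without both libraries numbered 1, and -0.091 to 0.080 with a library left out. Rbbp4 was at 0.00094 without both libraries numbered 1 and ranged from -0.16 to 0.0061 with a library left out. The like ranges were -0.30 to 0.12 for Phf19, -0.033 to 0.12 for Pcgf3, -0.019 to 0.17 for Bap1, -0.13 to 0.0397 for the Ring1 to Rnf2 ratio and -0.11 to 0.0915 for the Rybp to Yaf2 ratio.

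A peak lay near 13 members within 1000 bp (41.9%, background 24.8%) and 15 within 5000 bp (48.4%, background 28.9%). With only peaks at or above the median score, 10 members had one (32.3%, background 15.0%). When only gene starts were read, 11 of 27 did (40.7%, background 25.8%). The background in each setting is the same share over tested protein-coding genes. Cbx2 and Phf19 rested on few counts. With 1 peak list for all ChIP samples, peaks have no replicate error.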
